A study of Rattus norvegicus with 30 samples.

Results

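The genes described here are the nuclear genes for the 5 complexes of oxidative phosphorylation, measured in rat hepatocytes exposed to methapyrilene. They were chosen by symbol alone: genes starting with Ndufa, Ndufb, Ndufc, Ndufs or Ndufv (assembly factors left out), Uqcr, Cox4 to Cox8 or Atp5, together with the 4 Sdh genes, Cyc1 and Cycs, each with a probe set annotated to that gene and no other. This gave 81 of the 14217 genes with a probe set of their own, and each gene was read from its probe set with the highest mean over all 30 arrays. By complex these were 36 genes of complex I, 4 of complex II, 8 of complex III, 17 of complex IV and 16 of complex V. Of the 81 genes, 76 had a signal above the array's own median on at least 5 arrays and were tested, beside 10222 genes in all. The 5 others were all complex IV isoforms.

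Methapyrilene is an antihistamine known to damage rat liver, and the design compares its effect on mRNA levels by dose and time. The cells came frozen from male Sprague Dawley rats, were thawed, plated in wells and covered with Matrigel, and on day 3 received methapyrilene hydrochloride (3 uM or 100 uM) or the DMSO vehicle. RNA was taken after 24 or 48 h and hybridised to a rat whole-genome array, with 5 wells in each of the 6 groups (n = 5 in every group below). Wells are described as independent cultures, but no donor animals are named, and p-values therefore cover well-to-well spread in purchased cells. The DMSO content is given as 1%, but the protocol uses that figure for the concentrated dosing solutions, which leaves the final share open. The 3 uM, 100 uM and DMSO cells shared strain, sex, culture and vehicle, and the 24 h and 48 h wells had separate DMSO controls.

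Oxidative phosphorylation passes electrons from NADH through complex I, and from succinate through complex II, to ubiquinone, then through complex III and cytochrome c to complex IV, which reduces oxygen. Complexes I, III and IV pump protons across the inner mitochondrial membrane, and complex V, the ATP synthase, uses the return of those protons to make ATP. Most subunits are encoded in the nucleus and imported, while a smaller set comes from mitochondrial DNA, and hepatocytes are rich in mitochondria. A part of the subunits carries the flavin, iron-sulfur, haem and nucleotide sites of catalysis, and the rest are accessory subunits, tissue isoforms or regulators.

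All 7 hepatocyte markers on the array (Alb, Ttr, Apoa1, Fga, Ambp, Hnf4a and Cps1) were above the median on all 30 arrays. Krt7, Spp1, Cftr, Ptprc, Adgre1, Cd163, Lrat, Pdgfrb, Pecam1, Vwf and Tnnt2, markers of bile duct, blood, stellate, endothelial and muscle cells, were above it on 0 arrays. Epcam, Cd68, Col3a1, Acta2 and Kdr were above it on all 30, Des on 26, Csf1r on 20, Clec4f and Col1a1 on 19, Myl2 on 16, Krt19 on 5, Lyve1 and Ckm on 2, and Stab2 and Myh7 on 1. The summed signal of the 6 Kupffer cell and leukocyte markers on the array was 1822 to 2653 with DMSO and 2611 to 3173 with 100 uM at 24 h, and 1537 to 2373 against 2751 to 3737 at 48 h. Of these markers Cd68 rose (log2 fold change 0.86 and 1.65), while Clec4f (0.04 and 0.007) and Csf1r (0.39 and -0.07) were not called. Krt19 fell by 1.49 on the log2 scale at 48 h, Epcam had 0.15 at 24 h and -0.15 at 48 h (both called), Des rose by 0.58 at 48 h and Myl2, a muscle gene, by 1.00 at 24 h. The summed signal of the 5 bile duct markers was 9925 to 11037 with DMSO and 11090 to 11967 with 100 uM at 24 h, and 12600 to 13594 against 11063 to 12023 at 48 h, apart at both times and in opposite directions. Most of this sum was Epcam, with a median signal of 11120, against medians of 17 to 235 for Krt7, Krt19, Spp1 and Cftr. At 24 h Krt19 had a log2 fold change of -1.09 and was not called (adjusted p = 0.0517). Among the hepatocyte markers Fga fell by 0.44 and 0.26 on the log2 scale at 24 and 48 h, Cps1 by 0.36 and 0.38, and Hnf4a by 0.37 at 24 h. The summed hepatocyte markers were 366189 to 449751 against 343755 to 437669 at 24 h and 361960 to 431187 against 329964 to 372874 at 48 h. The part of these shifts in the results below was not tested, and in bulk RNA fewer cells of a type and less RNA per cell cannot be told apart. Replicates 1 to 3 of 3 uM at 24 h stood apart: their ratio of 3' to 5' beta-actin control signal was 3.93 to 5.30, against 2.34 to 3.43 on the other 27 arrays, and results that rest on them are given with and without them. The GAPDH ratio was 1.08 to 1.13 with DMSO and 1.02 to 1.07 with 100 uM at 48 h, without overlap, and its part in the 48 h results was not tested.

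At 100 uM most of the oxidative phosphorylation genes that were called were lower, by small amounts. At 24 h 11 of the 76 genes (14.5%) were called at an adjusted p under 0.05, beside 35.7% of all genes, with 9 lower and 2 higher. The 9 lower genes were 11.8% of the 76, against 15.8% of all genes, and the 2 higher genes were 2.63% against 19.9%. At 48 h 18 of the 76 (23.7%) were called, beside 33.4% of all genes, with 16 lower (21.1% against 14.5% of all genes) and 2 higher (2.63% against 18.9%). At 24 h the share of the 76 genes called was below that of all genes in each fit where both shares were counted. At 48 h the order turned with the fit. Both shares were counted with all arrays, without the 3 arrays that stood apart, after quantile normalization and after centring on medians. They were also counted with array weights, with only the groups compared and leaving out each well compared, but not in the other fits. The share called at 48 h was 40.8% of the 76 genes against 36.5% of all genes without the 3 arrays that stood apart, 38.2% against 35.4% after quantile normalization, 40.8% against 39.6% with array weights and 46.1% against 37.7% with only the groups compared. The share called lower at 48 h was 14.5% against 15.1% of all genes after centring on medians and 13.2% against 13.5% without replicate 5 of 100 uM. The lower share at 24 h, below that of all genes here, was 17.1% against 17% without the 3 arrays and 18.4% against 16.4% after quantile normalization. The median log2 fold change of the 76 genes was -0.03 at 24 h and -0.08 at 48 h, while that of all genes was 0.04 and 0.05. Below 0 were 49 of the 76 genes at 24 h and 54 at 48 h. These genes varied together within groups (median pairwise correlation 0.673), so such counts do not stand for independent observations. A change of at least 1.5-fold was called in 1 of the 76 genes at either time, Ndufa4l2, and in 971 and 857 of all genes. The median standard error was 0.071 for these genes and 0.11 for all genes.

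**Figure D1:**
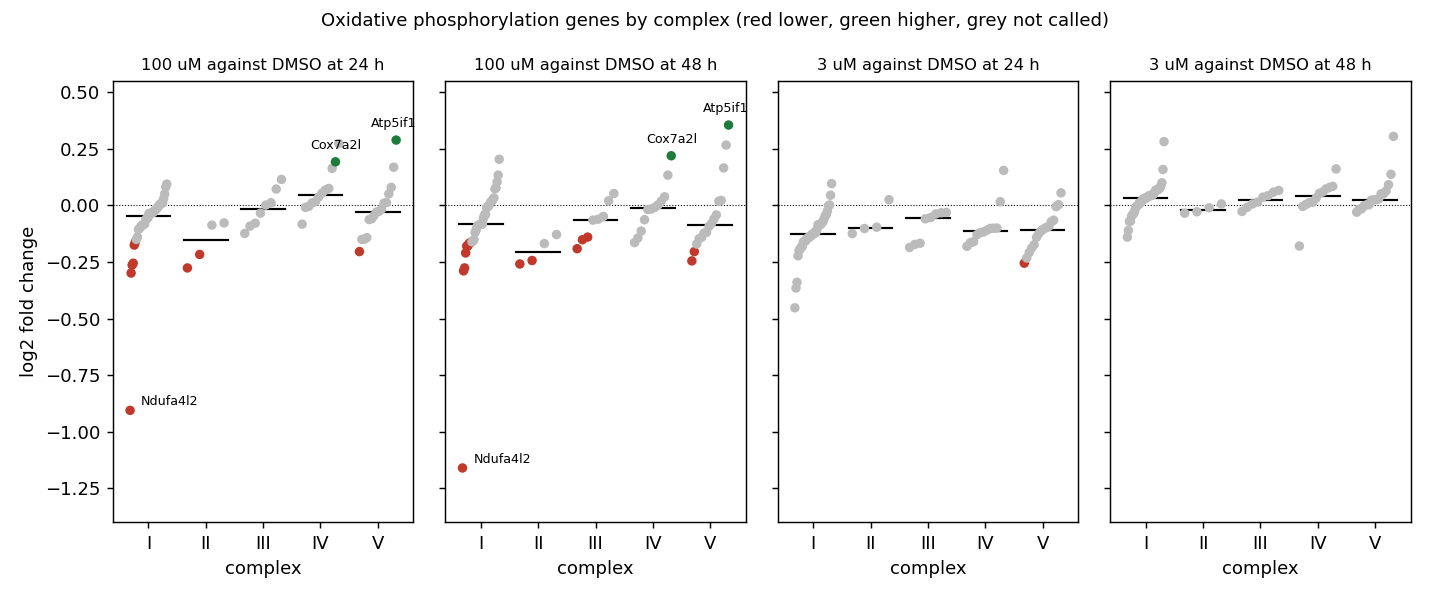
Log2 fold change of each of the 76 tested genes against the DMSO wells of the same time (points, n = 5 wells per group), arranged by complex, with the median of each complex as a bar. At 100 uM the called genes of complexes I, II and III all lie below 0, Cox7a2l and Atp5if1 lie above it, and at 3 uM 1 gene at 24 h and none at 48 h was called.

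The counts by complex stand beside 15.8% of all genes called lower and 19.9% higher at 24 h, and 14.5% and 18.9% at 48 h. By complex, in the fit of all arrays, 6 of the 36 complex I genes were called lower at 24 h and 9 at 48 h, and none higher. Genes were placed in complexes by symbol, and both counts include Ndufa4l2. Of the 4 complex II genes 2 were lower at both times. Of the 8 complex III genes none was called at 24 h (1 at an unadjusted p under 0.05) and 3 were lower at 48 h. Of the 12 complex IV genes none was lower and 1 was higher at both times. Of the 16 complex V genes 1 was lower at 24 h and 2 at 48 h, and 1 was higher at both. The medians of the log2 fold changes ran from -0.15 in complex II to 0.05 in complex IV at 24 h, and from -0.21 in complex II to -0.01 in complex IV at 48 h. Whether the complexes differed from each other was not tested.

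The gene with the largest change was Ndufa4l2, a paralogue of Ndufa4 that is induced in hypoxia and lowers complex I activity. It was counted with complex I by its symbol alone. Its signals were 6248, 6728, 4615, 3183 and 4721 in the DMSO wells at 24 h and 2720, 2248, 2332, 2525 and 3511 at 100 uM. The treated wells were lower as a group, but replicate 4 of DMSO lay below replicate 5 of 100 uM, so the groups overlapped by 1 well. The log2 fold change at 24 h was -0.91 (SE 0.15, adjusted p = 6.27e-06), a fold of 0.534. At 48 h the signals were 7045, 7764, 8025, 7087 and 8899 with DMSO and 3586, 3377, 3061, 3568 and 3756 at 100 uM, with every treated well below every control. The log2 fold change was -1.16 (SE 0.15, adjusted p = 8.83e-08), a fold of 0.447.

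Ndufa4l2 was also the one gene of the 76 whose level changed with time in the DMSO wells alone. It was 0.65 higher on the log2 scale at 48 h than at 24 h (SE 0.15, adjusted p = 0.00464), and all 5 wells at 48 h lay above all 5 at 24 h. In that comparison 4.48% of all genes were called (2.56% higher and 1.92% lower), and 3.38% were higher and 3.07% lower without overlap of wells, against 1 and 0 of the 76 genes. At 3 uM it was 3601, 3265, 3072, 4478 and 5088 at 24 h and 5914, 7490, 6643, 7571 and 7650 at 48 h. These wells overlapped the DMSO wells at both times, and neither difference was called (log2 fold changes -0.36 and -0.14, adjusted p = 0.133 at 24 h). Without replicates 1 to 3 of 3 uM the value at 24 h was -0.047 (adjusted p = 0.966). Ndufa4 itself, grouped with complex I by its symbol although its protein is now placed in complex IV, had a log2 fold change of 0.003 (95% interval -0.18 to 0.19) at 24 h and -0.01 (-0.19 to 0.17) at 48 h.

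The other complex I genes that fell at both times were Ndufv1, Ndufs1, Ndufs3, Ndufs7 and Ndufs8, all in the matrix arm that takes electrons from NADH and hands them to ubiquinone. Ndufv1 encodes the subunit that binds NADH and the flavin. Its signals at 24 h were 11320, 11372, 11508, 11732 and 11796 with DMSO and 9513, 9375, 9678, 9709 and 10106 at 100 uM. The groups were clearly apart, and the log2 fold change was -0.26 (SE 0.047, adjusted p = 4.79e-05). At 48 h its signals were 12033, 11504, 11681, 11251 and 11382 with DMSO and 11351, 10327, 10036, 10003 and 10037 at 100 uM. Replicate 1 of 100 uM lay within the control range and the other 4 below it, with a log2 fold change of -0.16 (SE 0.047, adjusted p = 0.00686).

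Ndufs1, the largest iron-sulfur subunit of the complex, was at 7937, 8329, 8919, 8274 and 8743 with DMSO and at 6456, 7742, 7137, 7029 and 6828 at 100 uM at 24 h. All treated wells were below all controls, and the log2 fold change was -0.26 (SE 0.058, adjusted p = 0.000493). At 48 h the signals were 8607, 7759, 8427, 8841 and 8534 with DMSO and 7545, 8180, 7858, 6883 and 7078 at 100 uM. Here replicates 2 and 3 of 100 uM exceeded the lowest control, and the log2 fold change was -0.17 (SE 0.058, adjusted p = 0.0231).

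Ndufs3, which helps to form the quinone-reducing part of the arm, was at 13898, 12939, 15346, 13832 and 13966 with DMSO and at 11648, 11820, 11337, 11246 and 10786 at 100 uM at 24 h. The log2 fold change was -0.30 (SE 0.070, adjusted p = 0.000861), with no overlap of wells. At 48 h it was at 15987, 13836, 14183, 14814 and 14031 with DMSO and at 11879, 13018, 11528, 12049 and 11665 at 100 uM. The wells were again apart, with a log2 fold change of -0.28 (SE 0.070, adjusted p = 0.00204). Ndufs7 and Ndufs8, which carry the last iron-sulfur clusters before ubiquinone, had log2 fold changes of -0.18 and -0.16 at 24 h (adjusted p = 0.0377 and 0.0237) and -0.18 each at 48 h (adjusted p = 0.0347 and 0.0123). For both genes all treated wells lay below all controls at both times.

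Among the complex I genes called at 48 h alone, Ndufv3, an accessory subunit of the NADH-oxidising end, had the largest change. Its signals at 48 h were 8269, 7911, 8515, 8297 and 8252 with DMSO and 7370, 6361, 7253, 6604 and 6238 at 100 uM, with every treated well lower. The log2 fold change was -0.29 (SE 0.080, adjusted p = 0.00480), against -0.09 (adjusted p = 0.443) at 24 h, and the difference between the times was not called. A dimmer second probe set of Ndufv3 gave the opposite pattern of calls, -0.31 (adjusted p = 0.0254 over 17555 probe sets) at 24 h and -0.07 (adjusted p = 0.680) at 48 h, so the timing for this gene differed between its probe sets. Ndufa13 and Ndufa9, accessory subunits, fell by 0.21 and 0.17 on the log2 scale at 48 h (adjusted p = 0.0149 and 0.0269). The remaining 27 complex I genes, among them all Ndufb and Ndufc genes, were not called at either time in the fit of all arrays. Without the 3 arrays that stood apart Ndufb3 was called lower at both times (adjusted p = 0.0329 and 0.0152). Ndufv2 and Ndufa3 were then lower at 48 h (adjusted p = 0.00645 and 0.0293). Ndufb2 and Ndufa7 were then higher at 48 h (adjusted p = 0.0430 and 0.0388).

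**Figure D2:**
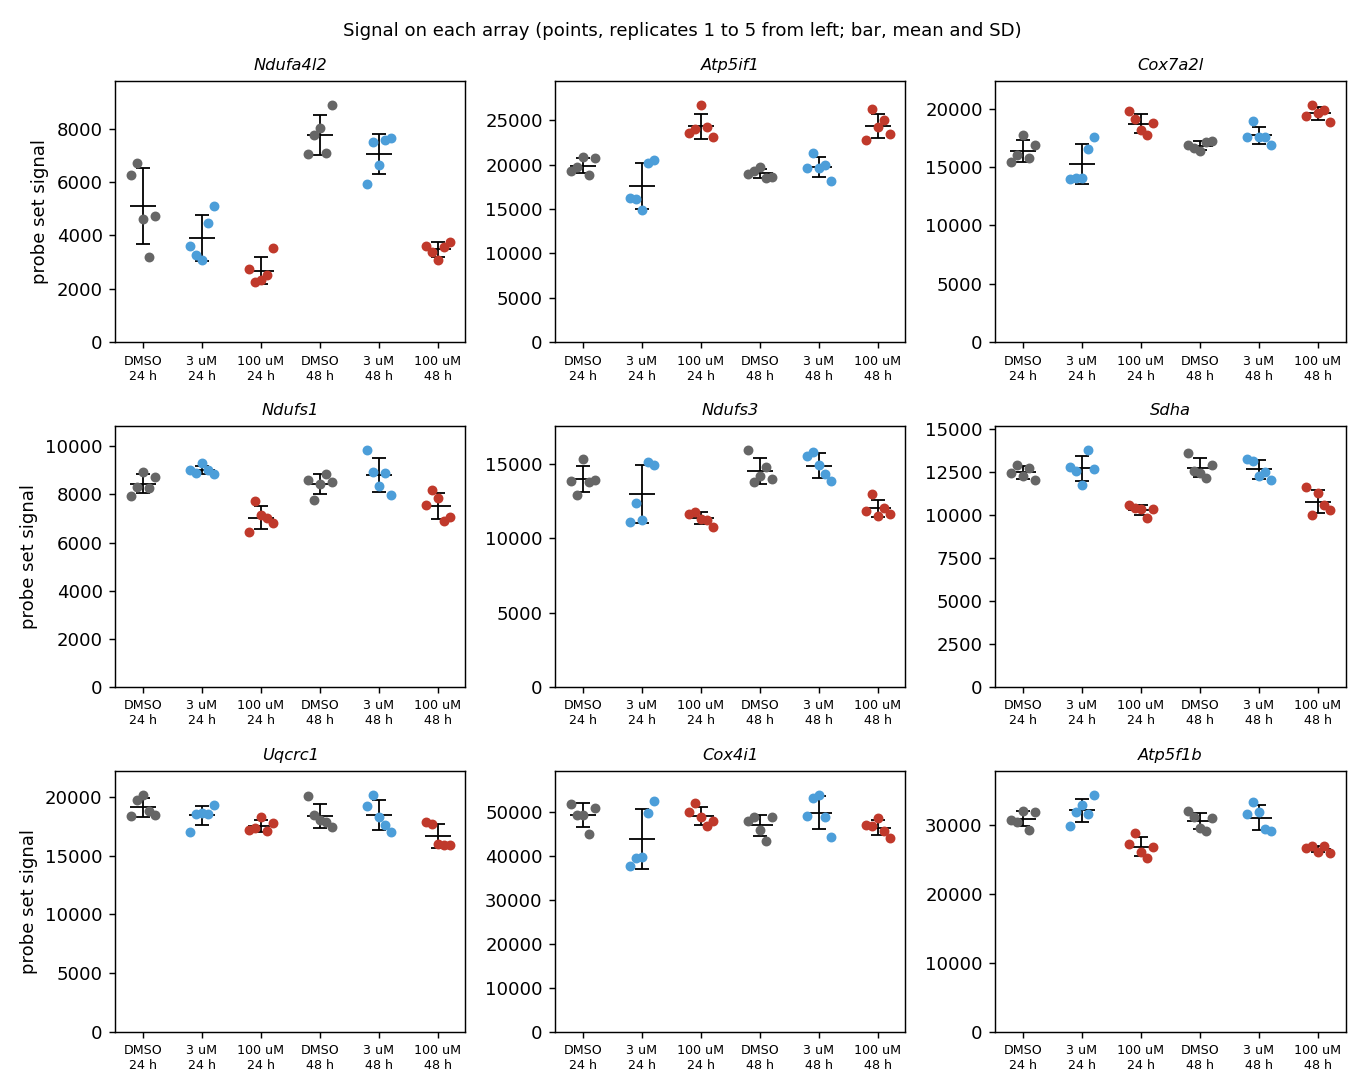
Probe set signal on each array for 9 genes of the 5 complexes (points, replicates 1 to 5 from left to right in each of the 6 groups; black bars, mean and SD, n = 5), on linear axes that start at 0. The 100 uM means lie below the DMSO means of the same time for Ndufa4l2, Ndufs1, Ndufs3, Sdha, Uqcrc1 and Atp5f1b and above them for Atp5if1 and Cox7a2l, while for Cox4i1 the wells of both overlap.

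Complex II has 4 genes, and the 2 called lower in the fit of all arrays were the catalytic flavoprotein Sdha and the membrane anchor Sdhd. Sdha was at 12449, 12943, 12308, 12760 and 12034 with DMSO and at 10589, 10418, 10375, 9834 and 10390 at 100 uM at 24 h. The gap between the groups was wide compared with the spread in each, and the log2 fold change was -0.28 (SE 0.049, adjusted p = 3.18e-05). At 48 h the signals were 13629, 12601, 12464, 12182 and 12912 with DMSO and 11662, 10039, 11294, 10608 and 10331 at 100 uM. No treated well reached a control, and the log2 fold change was -0.24 (SE 0.049, adjusted p = 0.000189).

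Sdhd was at 24437, 27166, 23942, 24798 and 25027 with DMSO and at 23919, 21078, 21262, 20243 and 21469 at 100 uM at 24 h. Replicate 1 of 100 uM came close to the lowest control without reaching it, and the log2 fold change was -0.22 (SE 0.063, adjusted p = 0.00644). At 48 h it was at 26768, 25838, 26315, 25738 and 28796 against 23312, 22516, 22879, 21002 and 21824, with all treated wells lower and a log2 fold change of -0.26 (SE 0.063, adjusted p = 0.00138). Its second probe set had log2 fold changes of -0.18 and -0.26 at the same times (SE 0.13) and was not called. Sdhb, the iron-sulfur subunit, and Sdhc, the other anchor, had log2 fold changes of -0.08 and -0.09 at 24 h. At 48 h they had -0.17 (adjusted p = 0.0733) and -0.13 (adjusted p = 0.122). Without the 3 arrays that stood apart both were called lower at 48 h (adjusted p = 0.0110 and 0.0390).

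In complex III the genes for both large matrix-side subunits and for the haem protein that feeds cytochrome c were lower at 48 h. These calls were lost in 9 of 26 alternatives for Cyc1, 8 for Uqcrc1 and 8 for Uqcrc2, with adjusted p up to 0.0952, 0.136 and 0.532 (the last with the mean of both probe sets). Centring on medians ended all 3 calls, and so did leaving out single wells: DMSO replicate 1 or 5 or 100 uM replicate 1, 2 or 5 for Cyc1, DMSO replicate 1 or 2 or 100 uM replicate 3, 4 or 5 for Uqcrc1, and DMSO replicate 5 or 100 uM replicate 4 or 5 for Uqcrc2. Cyc1, that haem protein, was at 21387, 18993, 19411, 19611 and 19959 with DMSO and at 17406, 16939, 17816, 18099 and 16747 at 100 uM. The wells were apart, and the log2 fold change was -0.19 (SE 0.070, adjusted p = 0.0336), against -0.09 (adjusted p = 0.341) at 24 h.

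Uqcrc1 was at 20097, 18503, 18012, 17888 and 17467 with DMSO and at 17873, 17686, 16042, 15942 and 15942 at 100 uM at 48 h. Replicates 1 and 2 of 100 uM lay within the control range, and the log2 fold change was -0.14 (SE 0.052, adjusted p = 0.0367). At 24 h all 5 treated wells, 17139 to 18312, lay below all controls, 18392 to 20186. The difference was not called (log2 fold change -0.12, SE 0.052, adjusted p = 0.0635). Without the 3 arrays that stood apart Uqcrc1 was called lower at 24 h (adjusted p = 0.0439). Uqcrc2 had a log2 fold change of -0.15 (SE 0.053, adjusted p = 0.0259) at 48 h, with 1 treated well, 23181, inside the control range of 23123 to 25432. At 24 h all treated wells, 21387 to 22349, lay just below all controls, 22374 to 24010, and the difference was not called (-0.08, adjusted p = 0.273). Its dimmer second probe set was not called at either time (0.23 and -0.004), and the mean of both probe sets turned the 24 h value positive. Uqcrfs1, the iron-sulfur protein of the complex, had -0.03 (95% interval -0.17 to 0.10) and -0.06 (-0.20 to 0.08).

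Complex IV, as grouped by symbol, was the one complex with no gene called lower at 100 uM in the fit of all arrays. The exception in the other direction was Cox7a2l, a paralogue of the Cox7a subunits known for joining complexes III and IV into supercomplexes. Its signals at 24 h were 15448, 16061, 17732, 15807 and 16926 with DMSO and 19847, 19144, 18158, 17722 and 18796 at 100 uM. The highest control just exceeded the lowest treated well, and the log2 fold change was 0.19 (SE 0.056, adjusted p = 0.00666). At 48 h it was at 16874, 16668, 16355, 17145 and 17217 with DMSO and at 19390, 20360, 19616, 19867 and 18901 at 100 uM, with all treated wells higher and a log2 fold change of 0.22 (SE 0.056, adjusted p = 0.00232).

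The ubiquitous subunit Cox4i1 was at 51893, 49443, 49449, 44943 and 50911 with DMSO and at 50089, 52084, 48804, 46806 and 48078 at 100 uM at 24 h. The groups lay on top of each other, and the log2 fold change was -0.004 (95% interval -0.15 to 0.14). At 48 h it was -0.02 (95% interval -0.16 to 0.13). Cox5a came closest to a second call, with 0.16 at 24 h (adjusted p = 0.0529) and 0.13 at 48 h (adjusted p = 0.126). Cox8a had -0.16 at 48 h (adjusted p = 0.0574). Without the 3 arrays that stood apart Cox5a was called higher at 24 h (adjusted p = 0.0343). Cox8a was then called lower at 48 h (adjusted p = 0.0194). Cox7a1, the isoform of heart and skeletal muscle, passed the filter on every array at a signal of 439 to 913 and was not called (0.27, adjusted p = 0.184, and 0.02, adjusted p = 0.945). The isoforms Cox4i2, Cox6a2, Cox6b2, Cox7b2 and Cox8b, known from lung, muscle or testis, were above the median on 0 of 30 arrays, with signals of at most 402, and without a filter none was called in any comparison. Cox6c-ps1, which the rule admits by its symbol and whose name marks it as a pseudogene, had 0.07 and -0.11 and was not called; signal from Cox6c RNA on its probe set cannot be told apart here.

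In complex V the genes for both subunits of the catalytic head, where ATP is made, were lower. Atp5f1b, the beta subunit, was at 30816, 30457, 32094, 29375 and 31909 with DMSO and at 27279, 28882, 26060, 25297 and 26827 at 100 uM at 24 h. No treated well reached a control, and the log2 fold change was -0.20 (SE 0.048, adjusted p = 0.000968). At 48 h it was at 32008, 31141, 29659, 29123 and 31003 against 26649, 27029, 26080, 26947 and 26016, again apart, with -0.20 (SE 0.048, adjusted p = 0.00104). Atp5f1a, the alpha subunit, was at 26639, 24718, 24357, 24888 and 28458 with DMSO and at 22477, 21668, 22313, 21331 and 20965 at 100 uM at 48 h. All treated wells were lower, and the log2 fold change was -0.24 (SE 0.064, adjusted p = 0.00272), against -0.15 (adjusted p = 0.0664) at 24 h.

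Atp5if1 went the other way. It encodes the small inhibitor that binds the catalytic head and stops it from hydrolysing ATP when the proton gradient fails. Its signals at 24 h were 19292, 19785, 20837, 18859 and 20742 with DMSO and 23539, 24022, 26773, 24217 and 23111 at 100 uM, and all treated wells were higher. The log2 fold change was 0.29 (SE 0.067, adjusted p = 0.000878), a fold of 1.22. At 48 h it was at 18971, 19303, 19724, 18546 and 18626 against 22841, 26252, 24237, 25028 and 23520, with a log2 fold change of 0.36 (SE 0.067, adjusted p = 7.78e-05) and a fold of 1.28. The other 2 probe sets of Atp5if1, with mean signals of 1381 and 722 against 20833, were not called: they had -0.13 and 0.22 at 24 h and 0.02 and 0.09 at 48 h. The rise therefore rests on the brightest probe set, and with the mean of the 3 probe sets it was 0.12 (adjusted p = 0.139) and 0.16 (adjusted p = 0.0594). The remaining complex V genes were not called at either time at 100 uM, with log2 fold changes from -0.15 to 0.17 at 24 h. Without the 3 arrays that stood apart Atp5pb was called lower at both times (adjusted p = 0.0304 and 0.0450). Atp5f1c, Atp5f1e, Atp5mf and Atp5po were then lower at 48 h (adjusted p = 0.00786 to 0.0469). Atp5f1a was then also called lower at 24 h (adjusted p = 0.0129).

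The genes were also sorted into core subunits and the rest, a split made after the values were seen and given as a description, with no test. The core subunits were taken as Ndufs1, Ndufs3, Ndufs7, Ndufs8, Ndufv1, Ndufv2, the 4 Sdh genes, Cyc1, Uqcrfs1, Atp5f1a to Atp5f1e and Atp5mc3. Of these 18 genes, 8 (44.4%) were lower at 24 h and 10 (55.6%) at 48 h, beside 15.8% and 14.5% of all genes. Their median log2 fold changes were -0.12 and -0.17. Because the split followed the values, these counts cannot show that core subunits differ from the rest. The core list holds no complex IV gene, so the split also follows the complexes. All 18 were below 0 at 48 h and 17 at 24 h. Of the 58 other genes, 1 (1.72%) was lower at 24 h and 6 (10.3%) at 48 h, 2 were higher at both times, and the medians were -0.01 and -0.04. Within complex I 5 of the 6 core genes were lower at each time, against 1 and 4 of the 30 others. The counts at 48 h moved with the fit: without the 3 arrays that stood apart 15 core subunits and 12 others were lower, with only the groups compared 15 and 14, and without replicate 5 of 100 uM 7 and 3.

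The genes called at 24 h were called again at 48 h. All 9 genes lower at 24 h were also lower at 48 h, which is 100% of the 24 h calls and 56.25% of the 16 at 48 h, and Cox7a2l and Atp5if1 were higher at both. Of all genes 1618 were lower at 24 h and 1482 at 48 h. The share of those called again was not counted, so whether the repeat is particular to the 76 genes is not known. The 2 times had separate treated and control wells. Across the 76 genes the log2 fold changes at 24 and 48 h had Pearson's r of 0.872 (0.757 without Ndufa4l2), where all 10222 genes had 0.750; genes of 1 array are not independent replicates. No gene of the 76 differed in its 100 uM effect between the times (limma, 0 called and 0 at an unadjusted p under 0.05, beside 1.66% of all genes called, 0.616% upward and 1.05% downward).

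**Figure D3:**
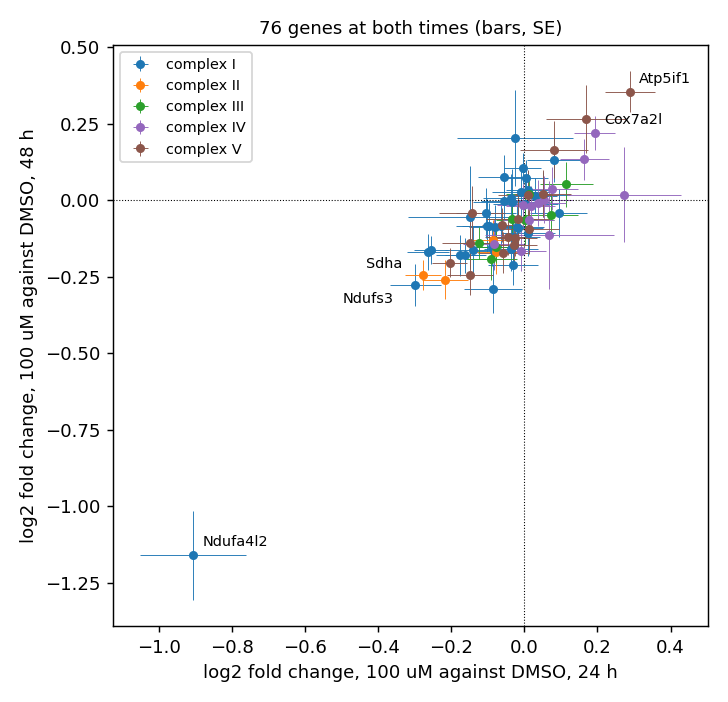
Log2 fold change of 100 uM against DMSO at 24 h (horizontal) and 48 h (vertical) for the 76 genes, coloured by complex, with standard errors as bars (n = 5 wells per group and time). Ndufa4l2 lies apart at the lower left (-0.91 and -1.16), Atp5if1 and Cox7a2l lie at the upper right, and Sdha and Ndufs3 are among the genes below 0 at both times.

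Counted by wells, the 100 uM and DMSO wells did not overlap for 11 of the 76 genes at 24 h, 10 of them lower (13.2%, beside 11.9% of all genes) and 1 higher (1.32%, beside 14.4%). At 48 h 20 genes were lower without overlap (26.3%, beside 12.2% of all genes) and 3 higher (3.95%, beside 15.8%). Ndufb3, Ndufv2, Ndufa3, Sdhb, Cox8a, Atp5f1c, Atp5mf and Atp5po were among those apart at 48 h without a call, with log2 fold changes of -0.12 to -0.17.

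The median coefficient of variation of the 76 genes was 4.19% to 6.29% in 5 of the groups, where all genes had 9.63% to 10.8%. In the sixth group, 3 uM at 24 h, it was 15.4%, against 14.2% for all genes. In that group the arrays split: on replicates 1, 2 and 3 their mean deviation from each gene's own mean over the 30 arrays was -0.20, -0.18 and -0.24 on the log2 scale, with 70 of the 76 genes below their mean on each. On replicates 4 and 5 it was 0.11 and 0.16. On the 27 arrays other than those 3 it ran from -0.07 to 0.16. The median correlation between pairs of these genes, taken within groups, was 0.673 over the 30 arrays and 0.603 without those 3.

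**Figure D4:**
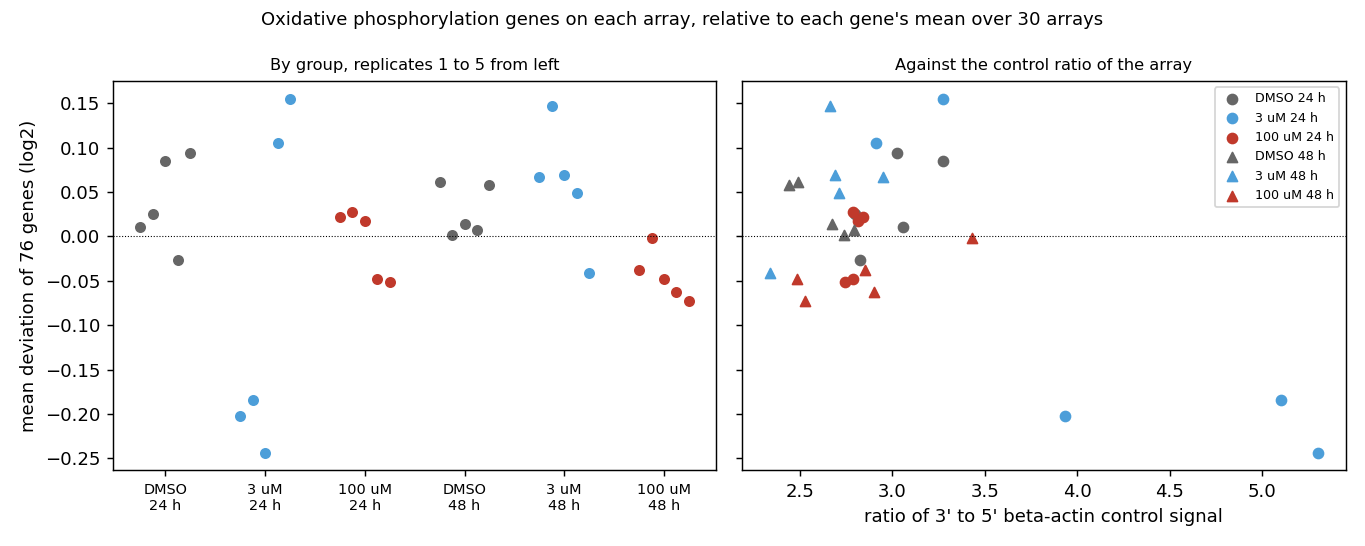
Mean log2 deviation of the 76 genes from each gene's own mean over 30 arrays, for each array, by group (left; replicates 1 to 5 from left to right) and against the ratio of 3' to 5' beta-actin control signal of the same array (right). Replicates 1 to 3 of 3 uM at 24 h lie at -0.18 or lower with ratios of 3.93 to 5.30, and the 27 other arrays lie between -0.07 and 0.16 with ratios of 2.34 to 3.43.

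At 3 uM and 24 h 1 of the 76 genes was called, beside 4.22% of all genes (1.22% lower and 2.99% higher). It was Atp5pb, a subunit of the stator that holds the ATP synthase head in place. Its signals were 42043, 49719, 40121, 38269 and 41452 with DMSO and 31706, 31935, 30640, 41293 and 42915 at 3 uM. Replicates 1 to 3 of 3 uM were lower than every control, while replicates 4 and 5 lay among the controls. The log2 fold change was -0.25 (SE 0.076, adjusted p = 0.0497). With replicates 4 and 5 alone it was -0.002 (adjusted p = 0.999).

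The same arrays set the sign of the whole group. With all 5 wells the median log2 fold change of the 76 genes at 3 uM and 24 h was -0.11, with 68 genes below 0. Without replicates 1 to 3 it was 0.09, with 7 genes below 0 and none called (0.0391% of all genes called). Without replicate 4 or replicate 5 instead, 21 and 35 genes were called lower, and without any single one of replicates 1 to 3 none was. The share of all genes called was not counted with single wells left out, so whether these counts are particular to the 76 genes is not known. Without DMSO replicate 1, 2 or 5 none was called, and without DMSO replicate 4 there were 2. The mean deviation of the 76 genes and the log2 beta-actin ratio had Pearson's r of -0.578 and Spearman's rho of -0.106 over the 30 arrays, and 0.316 and 0.226 over the 27 others. The part of RNA quality in these values was not tested.

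At 3 uM and 48 h none of the 76 genes was called by limma (2 at an unadjusted p under 0.05), beside 0.0391% of all genes (0.0196% lower and 0.0196% higher), and the median log2 fold change was 0.03. The wells of 3 uM and DMSO overlapped for all 76 genes at both times. Among all genes 0.704% were lower and 1.36% higher without overlap at 24 h, and 0.763% and 0.675% at 48 h. The change of the 3 uM effect between 24 and 48 h had 0 calls among the 76 genes and among all genes (13 of the 76 at an unadjusted p under 0.05), with a median of 0.15 that became -0.08 without replicates 1 to 3.

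Between the doses, 6 of the 76 genes were lower and 12 higher at 100 uM than at 3 uM at 24 h, beside 19.1% and 19.8% of all genes (38.9% in all). The wells of both doses did not overlap for 4 lower and 2 higher genes, beside 11% and 11.1% of all genes. Against replicates 4 and 5 of 3 uM alone they did not overlap for 37 lower and 2 higher genes, beside 16.8% and 21.5% of all genes. Without replicates 1 to 3 of 3 uM the counts were 22 lower and 1 higher, beside 12.3% of all genes lower. The 12 higher genes became 4, 5 and 4 without replicate 1, 2 or 3 of 3 uM, 26 and 35 without replicate 4 or 5, and 7 without replicate 1 or 3 of 100 uM. At 48 h, where those arrays take no part in the contrast, 17 were lower and 2 higher, beside 12.6% and 16.2% of all genes (28.8% in all). Without overlap 11 were lower and 2 higher, beside 10.2% and 12.9% of all genes. The 17 became 11 without replicate 4 of 100 uM and 9 without replicate 2 of 3 uM, and the 2 higher became 1 without any of 8 single wells. For both times, the share of all genes called between the doses was not counted with single wells left out. Leaving the same 3 arrays out of the shared estimate of spread also raised the counts of 100 uM against DMSO to 13 lower and 3 higher at 24 h (17% of all genes lower) and to 27 lower and 4 higher at 48 h (15.7% of all genes lower), with the same fold changes. At 48 h the count also rested on replicate 5 of 100 uM, without which 10 genes were lower. The 3 uM and 100 uM comparisons with DMSO share their control wells at each time.

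Genes around the respiratory chain were read from lists by function, chosen with earlier results of the same arrays known. For every list below, the shares of all genes were 15.8% lower and 19.9% higher at 24 h, and 14.5% and 18.9% at 48 h. The citric acid cycle supplies the electrons, and its list also named pyruvate dehydrogenase and pyruvate carboxylase genes. Of the 16 genes tested, 9 were lower and 1 was higher at both times. Leaving out 1 well gave 6 to 8 lower at 24 h and 7 to 9 at 48 h. Pc, pyruvate carboxylase, which refills the cycle, had log2 fold changes of -1.52 at 24 h (SE 0.10, adjusted p = 8.97e-14) and -1.64 at 48 h (adjusted p = 1.26e-14). Idh2, the NADP-linked isocitrate dehydrogenase, had -0.74 and -0.69. The median of the list was -0.16 at 24 h and -0.23 at 48 h.

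Among 28 genes of other electron entry, carriers and quinone synthesis, 8 were lower and 1 higher at 24 h and 9 lower and 3 higher at 48 h. The 1 higher at 24 h became 0 without DMSO replicate 2 or 4 or 100 uM replicate 1, 2 or 3, and 3 without DMSO replicate 3 or 100 uM replicate 5. Coq8a, which is needed to make ubiquinone, had -1.33 (SE 0.11, adjusted p = 7.57e-12) and -1.15. Slc25a10, the dicarboxylate carrier, had -0.93 at 24 h, and Slc25a13, an aspartate and glutamate carrier, -0.47 at 48 h. Of the 6 uncoupling, inhibitor and supercomplex factors, which include Ndufa4l2, 2 were lower at 24 h and 3 at 48 h: Nnt, the proton-driven transhydrogenase, had -0.47 and -0.55, and Higd2a had -0.18 at 48 h (adjusted p = 0.0401). That call was lost in 13 of 26 alternatives, with an adjusted p of up to 0.129.

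Of the 46 assembly factors 6 were higher and 3 lower at 24 h and 8 higher and 4 lower at 48 h (19.6% and 26.1% called, beside 35.7% and 33.4% of all genes). The shares called higher were 13% and 17.4%, beside 19.9% and 18.9% of all genes. Ndufaf1 and Ndufaf7, assembly factors of complex I, had 0.41 (adjusted p = 0.000350) and 0.31 (adjusted p = 0.000611) at 24 h. Cox17, a copper carrier for complex IV, and Coa3 had 0.36 (adjusted p = 3.30e-05) and 0.29 (adjusted p = 0.000165) at 48 h. Of the 73 mitochondrial ribosomal protein genes, which serve the subunits encoded in mitochondrial DNA, 20 were higher and 3 lower at 24 h and 18 higher and 1 lower at 48 h.

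Among the 14 regulators of mitochondrial biogenesis 4 were higher and 6 lower at 24 h and 5 higher and 6 lower at 48 h. Esrrg, a nuclear receptor that drives energy metabolism genes, had -1.30 (SE 0.18, adjusted p = 4.43e-07) and -1.01. Ppard had -0.57 at 24 h, and Prkaa1, a catalytic subunit of AMP-activated kinase, had -0.48 at 48 h (adjusted p = 9.77e-05) from its brightest probe set but 0.024 (adjusted p = 0.837) from the mean of its probe sets. Of 15 genes of mitochondrial DNA expression 5 were higher and 3 lower at 24 h and 3 higher and 3 lower at 48 h. Polg2, the accessory subunit of the mitochondrial DNA polymerase, had -1.16 (SE 0.093, adjusted p = 6.79e-12) and -0.50, and Mterf1 had 0.33 and 0.31.

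**Figure D5:**
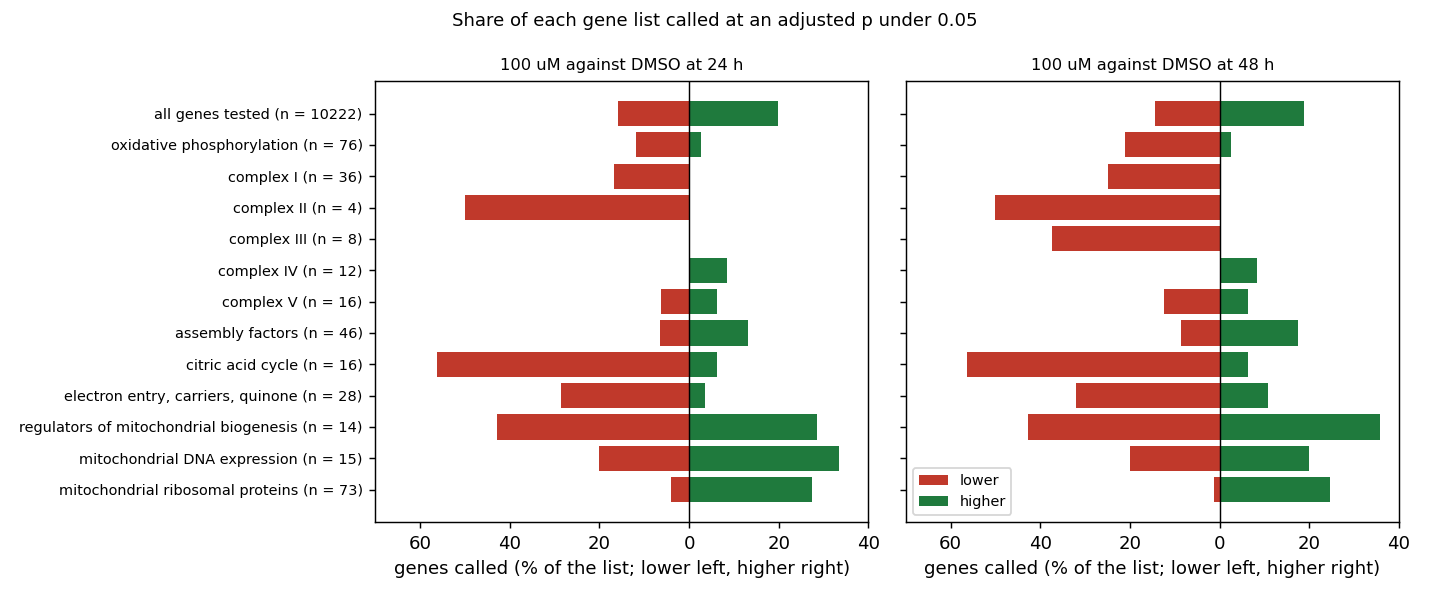
Share of each gene list called lower (red, to the left) and higher (green, to the right) at 100 uM against DMSO at 24 h and 48 h, in percent of the genes tested, with all genes at the top (15.8% lower and 19.9% higher at 24 h). The oxidative phosphorylation genes show almost no green (2.63% at both times), the citric acid cycle list has the longest red bars (9 of 16 genes), and the mitochondrial ribosomal proteins are mostly green.

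The sequences before the start sites were compared because nuclear genes of oxidative phosphorylation are known to share sites for the factors NRF1, GABPA (an ETS factor) and YY1. RefSeq promoters of build GRCr8, from 250 bases before to 50 after the start, were found for 72 of the 81 genes. The letters CCGGAAG of the ETS core were on either strand in 27.8% of these, against 9.22% of all 27457 promoters. The latter were not limited to the genes tested here. Whether a higher share is particular to oxidative phosphorylation genes is therefore not known. AAGATGGCG, a YY1 site, was in 13.9% against 1.93%, and the palindromic NRF1 site in 4.17% against 0.932%. CCAAT and TATAAA, which belong to no particular pathway, were in 34.7% and 11.1%, against 37.7% and 14.3%. None of these letter strings holds another. ACGTG, the core of hypoxia response elements, was searched after the values were seen and was in 25% against 19.7%. Of the 15 genes called lower at either time with a promoter in the table, 6 held the ETS core, 3 the YY1 site and 0 the NRF1 site; a match is a description and not evidence of binding.

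The 250 bases before the start are printed for 2 genes that fell at both times, chosen because they hold the ETS core, and for the 3 regulatory genes Ndufa4l2, Cox7a2l and Atp5if1, called at both times, 5' to 3' on the strand of the gene, with the ETS core (here as its reverse complement) in capitals. The windows of Ndufs1 (chr9:72073606-72073855, minus strand) and Sdhd (chr8:59850642-59850891, minus strand) hold it. Of the 9 genes lower at both times, 3 hold it there (Ndufs1, Ndufs8 and Sdhd) and Atp5f1b, Ndufa4l2, Ndufs3, Ndufs7, Ndufv1 and Sdha do not. Those of Ndufa4l2 (chr7:65241919-65242168, plus strand), Cox7a2l (chr6:16936324-16936573, plus strand) and Atp5if1 (chr5:150026678-150026927, minus strand) hold none of the NRF1, ETS and YY1 letter strings, which says only that these letters are absent from the window.
Ndufs1: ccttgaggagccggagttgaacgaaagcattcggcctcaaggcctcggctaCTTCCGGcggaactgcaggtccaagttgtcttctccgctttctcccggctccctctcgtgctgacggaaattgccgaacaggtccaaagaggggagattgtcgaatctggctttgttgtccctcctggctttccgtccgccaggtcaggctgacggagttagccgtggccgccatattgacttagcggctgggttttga
Sdhd: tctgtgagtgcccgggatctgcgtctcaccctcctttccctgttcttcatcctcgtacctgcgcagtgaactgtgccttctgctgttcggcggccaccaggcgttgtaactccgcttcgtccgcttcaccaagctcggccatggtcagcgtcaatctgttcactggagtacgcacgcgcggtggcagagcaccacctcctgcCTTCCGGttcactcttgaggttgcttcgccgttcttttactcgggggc
Ndufa4l2: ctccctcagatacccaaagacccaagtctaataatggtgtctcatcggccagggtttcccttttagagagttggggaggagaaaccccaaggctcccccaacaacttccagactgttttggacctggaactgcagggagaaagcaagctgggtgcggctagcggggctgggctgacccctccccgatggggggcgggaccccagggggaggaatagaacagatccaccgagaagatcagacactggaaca
Cox7a2l: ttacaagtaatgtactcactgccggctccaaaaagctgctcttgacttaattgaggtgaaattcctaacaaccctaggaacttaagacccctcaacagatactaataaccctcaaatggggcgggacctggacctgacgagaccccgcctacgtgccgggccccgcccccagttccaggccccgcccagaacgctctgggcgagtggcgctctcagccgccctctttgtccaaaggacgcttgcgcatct
Atp5if1: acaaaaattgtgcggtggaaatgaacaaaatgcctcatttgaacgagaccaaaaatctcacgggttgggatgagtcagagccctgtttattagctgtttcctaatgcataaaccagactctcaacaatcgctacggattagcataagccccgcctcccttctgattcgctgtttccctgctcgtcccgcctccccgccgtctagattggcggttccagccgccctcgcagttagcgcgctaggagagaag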

How the data were processed

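RNA of 30 wells (6 groups of 5) was measured on Affymetrix rat arrays. The deposited values are linear MAS5 intensity values (signal), 1 per probe set, per the submitters' processing notes, with trimmed means nearly equal on all arrays; the array number limits the precision, and depth does not apply. Of 31099 probe sets 57 were controls, 20826 were annotated to 1 gene symbol, 436 to several and 9780 to none. Per gene the probe set with the highest mean was kept. Genes above the array's median on at least 5 arrays were tested on log2 signal with limma 3.58.1 (R 4.3.3), 1 mean per group over all 30 arrays (24 residual degrees of freedom, eBayes with trend), with Benjamini-Hochberg adjustment over 10222 genes in each comparison. Adjusted p-values are limma's, two-sided, and a gene was called under 0.05. The fit was tested on simulated data, where 78% of planted 1.5-fold changes were called in the right direction. Changes under 1.5-fold, like most of those called among the oxidative phosphorylation genes, were not simulated. Figures used Python 3.11.15 and matplotlib 3.10.9.

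The members and lists were chosen with earlier results of these data known. Named in full were up to 4 called genes per complex at 100 uM by adjusted p (or the smallest where none passed), up to 6 in the other comparisons, genes under the filter, tissue isoforms, and up to 2 called genes of each other list. Other genes named were chosen after their values were seen. Promoters are RefSeq's (GRCr8). Protein sequences were not used here. Alternatives were other scalings, filters, probe set rules, thresholds and models, and leaving out each well.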

Additional observations from a re-analysis of the deposited data

Results flagged for a closer look

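Among 96 groups of 5 wells tested, for 15 of the named genes and the mean over the 76 genes, 3 held a well whose gap to its nearest neighbour was large for the range of the group, where chance gives about 1 in 20. Ndufv1 was at 10529 in replicate 2 of 3 uM at 24 h, with the other 4 wells at 11709 to 12045. Ndufv1 was at 11351 in replicate 1 of 100 uM at 48 h, with the others at 10003 to 10327. Sdha was at 9834 in replicate 4 of 100 uM at 24 h, with the others at 10375 to 10589.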

How the results depend on the processing

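Of 2866 alternative values for 108 results, 2595 were labelled the same. For single genes (1267 of 1376) this meant the same direction and side of the threshold. For counts (1088 of 1236) it meant within 1.5-fold of the main count. For medians (240 of 254) it meant a move smaller than the spread between arrays of a group, whatever the sign. Of the rest, 192 fell short of the threshold or counted fewer genes, and 63 passed it or counted more. A further 14 medians moved, and 2 gene values reversed. The causes were not tested unless the alternative's construction gives one. With the mean of all probe sets Prkaa1 at 100 uM and 48 h was 0.024 (adjusted p = 0.837) and Uqcrc2 at 100 uM and 24 h was 0.077 (adjusted p = 0.532). Counts below are members called, and the share of all genes was counted for some of these fits only. For 100 uM against DMSO at 24 h (9 lower, 2 higher), quantile normalization gave 14 lower, centring on medians 1 higher, and a 1.5-fold minimum 1 lower and 0 higher. At 48 h (16 lower, 2 higher), an adjusted p under 0.01 gave 8 lower, array weights 26 lower and 5 higher, the 1.5-fold minimum 1 and 0, only the groups compared 29 and 6, and the fit without the 3 arrays 27 and 4. There centring gave 1 higher, the beta-actin covariate 5 and quantile normalization 6. Leaving out 1 well gave 8 to 9 lower and 2 to 3 higher at 24 h, and 10 to 17 lower and 2 to 3 higher at 48 h.

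For 3 uM against DMSO at 24 h (1 lower, 0 higher), array weights gave 56 lower, quantile normalization 2 lower and 1 higher, and a filter requiring all arrays 2 lower. It was 0 lower with replicates 4 and 5 alone, p under 0.01, centring, the 1.5-fold minimum, the beta-actin covariate, mean probe sets, no filter, no trend or only the groups compared, and 0 to 35 leaving out 1 well. For 100 uM against 3 uM at 24 h (6 lower, 12 higher), the higher count was 4 at p under 0.01, 50 with weights, 2 with centring or the covariate, 0 at 1.5-fold, 3 with only the groups compared, 1 without the 3 arrays and 4 to 35 leaving out 1 well. The lower count was 0 at 1.5-fold, 10 with the covariate, 11 with quantile normalization, 22 without the 3 arrays and 5 to 7 leaving out 1 well. At 48 h (17 lower, 2 higher), p under 0.01 gave 8 lower and 1 higher, weights 29 lower, centring 8 and 1, 1.5-fold 1 and 0, and the fit without the 3 arrays 28 lower. No filter or no trend gave 1 higher, and leaving out 1 well 9 to 24 lower and 1 to 2 higher. For the 3 uM effect at 48 h minus 24 h (0 higher), weights gave 45 and leaving out 1 well 0 to 1. For DMSO over time (0 lower, 1 higher), the covariate gave 2 lower and quantile normalization 2 higher.

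The labels pair no wells. A replicate block from runs of 6 array numbers, which hold 1 array of each group, gave 9 lower and 2 higher for 100 uM at 24 h, 16 and 3 at 48 h, and 15 and 1 for 100 uM against 3 uM at 48 h. Centring on medians moved the higher share of all calls from 55.6% to 47.5% at 100 uM and 24 h, from 56.6% to 44.7% at 48 h and from 71% to 90.7% at 3 uM and 24 h. Updating gene symbols changed 0 of them. Signals near background limit what can be read of the 5 isoforms under the filter.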

Other observations

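Probe sets annotated to several genes were left out of the 81 genes, so cytochrome c itself (Cycs) was not among them. The 9 such probe sets that include an oxidative phosphorylation symbol were fitted with all 17555 probe sets by limma. At 100 uM and 48 h the probe set shared by Atp5mc1, a gene of the membrane ring of the ATP synthase, and Atp5mc1l1 had a log2 fold change of -0.20 (SE 0.069, adjusted p = 0.0299), and that shared by Ndufa10 and Ndufa10l1 had -0.20 (SE 0.076, adjusted p = 0.0440). None of the 9 was called at 100 uM and 24 h. Of the 2 Cycs probe sets, shared with Cycs-ps9 and Cycsl1, 1 had -0.28 (adjusted p = 0.0427) at 3 uM and 24 h, the group with the 3 arrays that stood apart, and -0.005 (adjusted p = 0.993) without them.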
